A study of Homo sapiens with 4 samples.

Results

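Krüppel-like factors (KLFs) are transcription factors with C2H2 zinc fingers at the carboxyl end that bind GC-rich and CACCC elements. They act as activators or repressors according to the cofactors that their variable amino-terminal parts recruit, and in lymphocytes several of them are known for holding cells in quiescence and for directing trafficking. The 10 members considered here were KLF2, KLF3, KLF4, KLF6, KLF7, KLF9, KLF10, KLF11, KLF12 and KLF13. All probes annotated with one of these symbols were taken, which gave 14 of the 47230 complete probes of the array, for 9 of the 10 members, out of 20045 genes with a named probe. No probe carried the symbol KLF11 in the annotation used, and KLF11 was not analysed here. KLF3, KLF4 and KLF12 had 2 probes each, KLF10 had 3 and the other 5 members 1 each.

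The cells were L591, an established Hodgkin lymphoma line, so all values describe 1 line. Mock cells received 40 µg of the empty expression plasmid pcDNA3, and PDLIM2 cells received 40 µg of pcDNA3 carrying PDLIM2 transcript variant 2, a putative ubiquitin ligase with PDZ and LIM domains. Both groups also received 10 µg of the GFP plasmid pEGFP-N3 and were sorted for GFP, so the controls share the transfection, the GFP and the sort. Biotin-labelled RNA of each group, given as polyadenylated, was read on 2 Illumina bead arrays (array 1 and array 2 in the sample titles). Whether a group's pair of arrays stands for separate cultures is not stated, and p-values therefore cover only array-to-array spread, some or all of which may be technical.

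Each probe had 1 value per array, read as log2 of bead intensity from its range, since no label states the scale. The median of an array lay between 6.006 and 6.007 log2 units on all of them. Of the marker genes of Hodgkin and B-lineage cells, 9 of 13 with a probe were brighter than a background reference that is explained below, CCL22, FSCN1 and IRF4 among them, while TNFRSF8 (CD30), a defining marker of Hodgkin cells, PAX5, MS4A1 and CCL17 were not. The same held for 1 of 15 T and NK cell genes (CD2), 1 of 10 myeloid genes (CD68) and 1 of 9 stromal genes (COL1A1). PDLIM2 had 2 dim probes that differed in opposite directions, by 0.31 (SE 0.18) for ILMN_1669667 and -0.29 (SE 0.15) for ILMN_1770248 on the log2 scale. Where these probes lie relative to the transfected cDNA was not determined, so they do not check the labels.

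KLF6, KLF13 and KLF9 were the members read above the background reference on each of the 4 arrays. In place of detection p-values, 60 probes of 44 genes specific to other tissues (liver, heart, muscle, brain, pancreas, skin and others) served as a stand-in for unexpressed genes. Their 95th percentile lay between 7.36 and 7.51 log2 units on the 4 arrays. A KLF probe counted as above the reference when it exceeded that level on each of the 4 arrays, and 3 of the 14 probes did. Brightness differs between probes for reasons other than transcript level, so it does not order the members by expression.

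**Figure D1:**
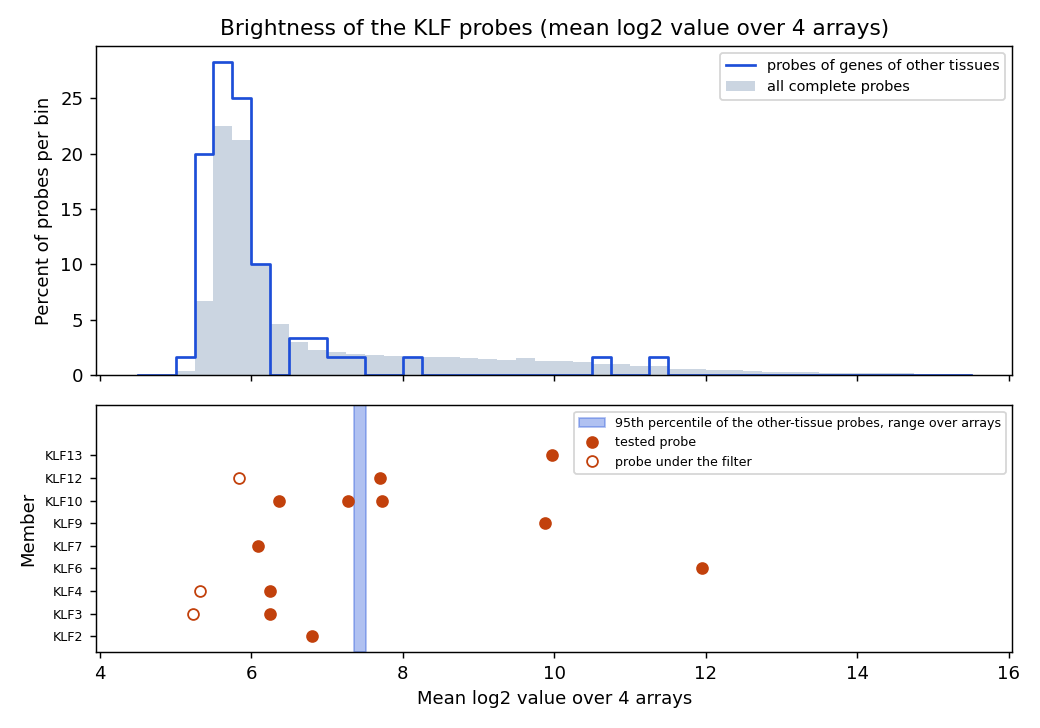
The upper panel gives the percent of probes (y axis) in bins of mean log2 value over the 4 arrays (x axis), for all complete probes (grey bars) and for probes of genes of other tissues (blue line). The lower panel gives each KLF probe on the same axis by member (filled, tested; open, under the brightness filter) with the 95th percentile of the other-tissue probes, 7.36 to 7.51 over the arrays, as a blue band. KLF6, KLF9 and KLF13 lie to the right of the band, 1 probe each of KLF10 and KLF12 lies just above it, and all other probes lie below it.

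The KLF6 probe (ILMN_1735014) had a mean of 11.95 log2 units over the 4 arrays, brighter than 97.1% of all probes. KLF13 (ILMN_1679929), at 9.98, and KLF9 (ILMN_1778523), at 9.87, lay at percentiles 89.97 and 89.4. A second tier was formed by 1 KLF10 probe (ILMN_2411897, 7.73) and 1 KLF12 probe (ILMN_1714444, 7.70), which exceeded the 90th percentile of the reference on every array but not the 95th. The KLF10 probe missed it on PDLIM2 array 2, with 7.36 log2 units, and the KLF12 probe on PDLIM2 array 1, with 7.44. Another KLF10 probe (ILMN_1659122) exceeded the 95th percentile on both mock arrays and PDLIM2 array 1, and missed it on PDLIM2 array 2, with 6.01. On the mock arrays alone, these KLF10 and KLF12 probes were thus above the 95th percentile, and they failed the rule only through a PDLIM2 array. The reference itself held the bright probes of PRL (11.47) and KRT10 (10.56). Without these 2 genes, a choice made after seeing the data, 5 of the 14 KLF probes passed instead of 3.

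No probe of KLF2, KLF3, KLF4 or KLF7 exceeded the 95th percentile of the background reference on any array. KLF2, which maintains lymphocyte quiescence and sustains trafficking receptors, read 6.80 log2 units on average at percentile 68.8. It exceeded the 90th percentile of the reference on mock array 2 and PDLIM2 array 2, and not on the other arrays. The brighter probes of KLF3 (ILMN_1670245) and KLF4 (ILMN_1779857) both read 6.24, and the KLF7 probe read 6.09. The second probes of KLF3 (ILMN_2048507, 5.23), KLF4 (ILMN_2137789, 5.32) and KLF12 (ILMN_1762801, 5.84) lay under the median brightness of all probes, 5.99, which served as the filter for testing. A dim probe shows only that this probe was dim: for KLF12 the 2 probes are annotated to the same transcript, yet 1 lay at percentile 76.1 and the other at 38.4.

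PDLIM2 cells had lower values of KLF9 and KLF6 than mock cells, and lower values of 2 of the 3 KLF10 probes, while the other tested members differed by less than the spread between arrays. No KLF probe passed the test over all probes. Of the 14 probes, 11 for 9 members passed the brightness filter and were tested with limma among 23615 probes, and 0 of the 11 had an adjusted p under 0.05, as did 0 of all tested probes (0% higher and 0% lower). At an unadjusted p under 0.05 there were 2 KLF probes with lower values, KLF9 and KLF6, against 1.74% of all tested probes (411 of 23615), and 0 with higher values, against 1.08% (254). Over the 11 probes the median log2 difference, PDLIM2 minus mock, was -0.076, with 7 lower and 4 higher values. Over all tested probes the median was 0.012, and 47.2% had lower values. In bulk RNA of this kind, fewer cells that express a gene and less of its RNA per cell cannot be told apart.

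**Figure D2:**
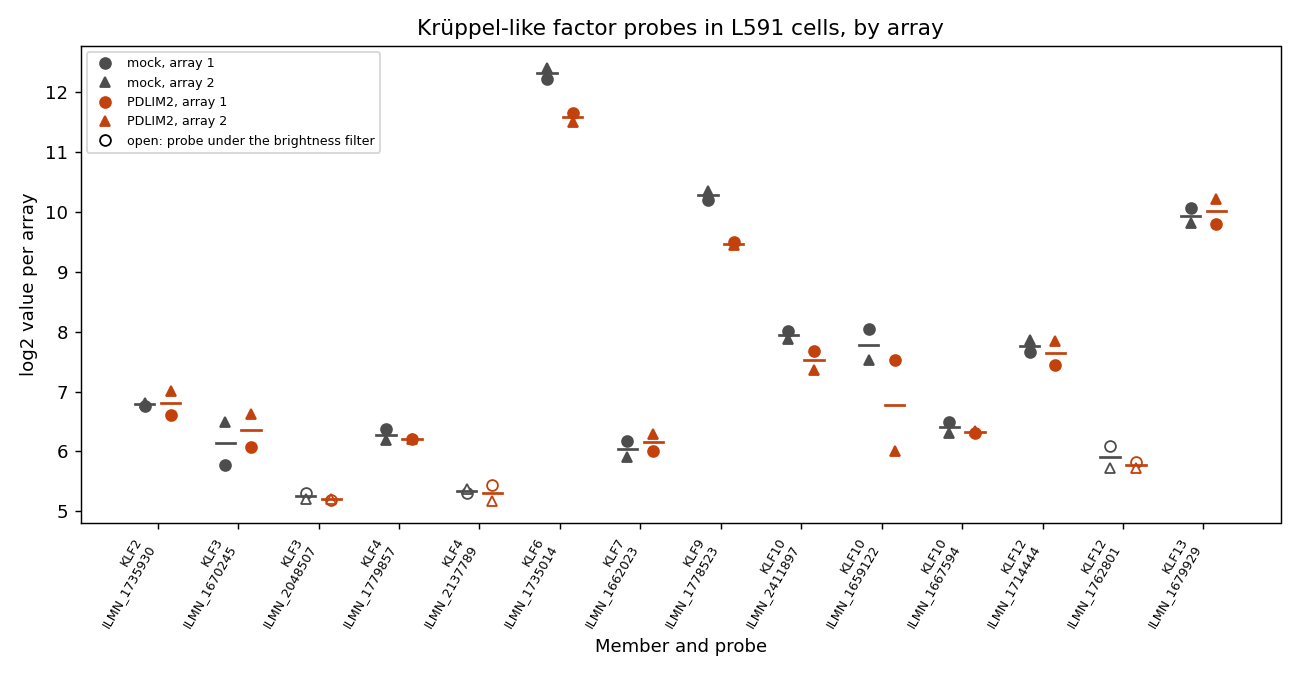
Log2 value per array (y axis) of the 14 KLF probes (x axis) in mock arrays (grey) and PDLIM2 arrays (orange), with circles for array 1, triangles for array 2 and a line at each group mean. Open symbols mark the 3 probes under the brightness filter. Both PDLIM2 values of KLF6 (11.66 and 11.51) and of KLF9 (9.49 and 9.44) lie below both mock values.

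KLF9, a repressor that recruits SIN3A, is induced by glucocorticoids and is known to restrain the proliferation of B cells. Its probe read 10.21 and 10.35 log2 units in mock arrays 1 and 2, and 9.49 and 9.44 in PDLIM2 arrays 1 and 2. Both PDLIM2 arrays lay below both mock arrays, and the gap between the groups was wider than the gap within either. The means were 10.28 ± 0.10 and 9.47 ± 0.04 (SD, n = 2 each), a log2 difference of -0.81 (SE 0.17, 95% interval -1.21 to -0.41), which is 0.571 times the mock level. The unadjusted p in limma was 0.0019 and the adjusted p 0.9998. Differences at or below that of KLF9 were found for 0.589% of the tested probes.

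KLF6, an activator described as a tumour suppressor and as an early response gene, had a difference of similar size. Its probe read 12.22 and 12.41 log2 units in mock arrays 1 and 2, and 11.66 and 11.51 in PDLIM2 arrays 1 and 2. The groups again did not overlap. The means were 12.32 ± 0.13 and 11.58 ± 0.10 (SD, n = 2 each), a log2 difference of -0.73 (SE 0.18, 95% interval -1.15 to -0.32), or 0.601 times the mock level. The unadjusted p in limma was 0.004 and the adjusted p 0.9998, and 0.805% of the tested probes had a difference at or below it. The differences of KLF9 and KLF6 kept their sign with each array left out, between -0.88 and -0.74 for KLF9 and between -0.83 and -0.64 for KLF6. Adjusted p in limma without PDLIM2 array 1 was 0.0395 for KLF9 and 0.0512 for KLF6, in a fit that called 810 probes, and without PDLIM2 array 2 it was 0.512 and 0.99997. In both fits 1 PDLIM2 array stands alone, and the spread is measured on the mock arrays only.

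The upstream sequence of these 2 genes is shown because their values differed alike, beside that of KLF13, a member also above the background reference whose groups overlapped. Each is the 250 bases before the annotated RefSeq start (GRCh38.p14), 5′ to 3′ on the strand of the gene, with matches to any of 8 short motifs on either strand in capitals. KLF6 is given for chr10:3785210-3785459 (minus strand), KLF9 for chr9:70414658-70414907 (minus strand) and KLF13 for chr15:31326585-31326834 (plus strand).
KLF6: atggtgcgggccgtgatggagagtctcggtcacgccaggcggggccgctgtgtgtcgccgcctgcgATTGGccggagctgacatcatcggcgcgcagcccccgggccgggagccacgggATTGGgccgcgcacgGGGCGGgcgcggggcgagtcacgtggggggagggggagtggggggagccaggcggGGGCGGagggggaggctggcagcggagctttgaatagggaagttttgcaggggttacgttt
KLF9: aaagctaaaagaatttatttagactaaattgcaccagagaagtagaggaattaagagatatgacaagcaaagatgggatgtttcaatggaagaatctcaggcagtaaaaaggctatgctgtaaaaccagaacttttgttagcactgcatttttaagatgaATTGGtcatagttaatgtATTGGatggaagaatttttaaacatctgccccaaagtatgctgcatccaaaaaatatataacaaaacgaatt
KLF13: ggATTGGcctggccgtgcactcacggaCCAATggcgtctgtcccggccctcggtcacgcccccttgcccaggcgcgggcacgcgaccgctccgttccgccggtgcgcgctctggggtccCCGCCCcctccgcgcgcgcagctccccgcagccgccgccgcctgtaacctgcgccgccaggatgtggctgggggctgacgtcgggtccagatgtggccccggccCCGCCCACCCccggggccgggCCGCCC

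The motifs searched were the GC box (GGGCGG), the CACCC box (CCACCC), the cyclic AMP response element (TGACGTCA), the AP-1 site (TGANTCA), the STAT site (TTCNNNGAA), the FOXO site (GTAAACA), the glucocorticoid receptor half-site (AGAACA) and the CCAAT box (CCAAT). KLF6 and KLF9 each held 2 CCAAT boxes, as did KLF13, and 32% of the 35116 annotated upstream windows of this length held at least 1. KLF6 held 2 GC boxes and KLF13 held 3, against 42.6% of windows with at least 1, and KLF9 held 0. The window of KLF13 also held 1 CACCC box, which overlaps a GC box, and 31.3% of windows held one. The windows differed in base composition, with 72.4% G and C for KLF6, 78.8% for KLF13 and 32.4% for KLF9, where the median window had 58%. Matches are letters in a window and not sites in use. The sequence table matched 8 of the 10 members, all but KLF3 and KLF10, with 15 windows in all. Of these 15, 8 held a GC box, 6 a CCAAT box and 4 a CACCC box. The glucocorticoid half-site was in 2 (12.4% of all windows) and the cyclic AMP element in 1 (1.65%). The AP-1 and STAT sites were in 1 each (6.57% each), and the FOXO motif was in 0 (2.98%). With 15 windows, such counts are a description.

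KLF10, a TGF-beta-induced repressor that also recruits SIN3A, was read by probes that did not give 1 answer. The brightest (ILMN_2411897) read 8.01 and 7.88 log2 units in mock arrays 1 and 2, and 7.68 and 7.36 in PDLIM2 arrays 1 and 2. The groups did not overlap, and the difference was -0.42 (SE 0.19, 95% interval -0.87 to 0.02), or 0.746 times the mock level, with an unadjusted p of 0.0585 in limma and a difference of -0.26 without PDLIM2 array 2. The next (ILMN_1659122), annotated to the same transcript, read 8.05 and 7.52 in mock arrays 1 and 2, and 7.53 and 6.01 in PDLIM2 arrays 1 and 2. Its groups touched, since PDLIM2 array 1 lay at the level of mock array 2, and PDLIM2 array 2 stood far below the rest.

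The difference of that second KLF10 probe was -1.01 (SE 0.46, 95% interval -2.09 to 0.06), the largest of the KLF probes and the least precise, with an unadjusted p of 0.0612 in limma. PDLIM2 array 2 decided its size. The difference was -0.26 without PDLIM2 array 2 and -1.77 without PDLIM2 array 1, and the latter fit called it (limma, adjusted p = 3.54e-09) with PDLIM2 array 2 standing alone. The third probe (ILMN_1667594), annotated to another KLF10 transcript, read 6.49 and 6.31 in mock arrays 1 and 2, and 6.30 and 6.34 in PDLIM2 arrays 1 and 2. Its groups overlapped, its difference was -0.08 (SE 0.17), and it lay below the background reference.

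KLF13, a SIN3A-recruiting factor known for driving CCL5 in activated T cells, was above the background reference, like KLF9, but its groups overlapped. It read 10.06 and 9.82 log2 units in mock arrays 1 and 2, and 9.81 and 10.22 in PDLIM2 arrays 1 and 2. PDLIM2 array 2 was the highest and PDLIM2 array 1 the lowest of the 4, so the difference of 0.08 (SE 0.21) was smaller than the gap within the PDLIM2 group. The 95% interval, -0.41 to 0.57, overlaps that of KLF9 only at the edge, with a lower bound of -0.415 against the KLF9 upper bound of -0.411. The difference between these members was not tested, and the overlap of their intervals does not settle it.

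Among the members that recruit CTBP corepressors, KLF12 and KLF3, the groups of each tested probe overlapped. KLF12, a repressor of the gene TFAP2A, read 7.67 and 7.87 in mock arrays 1 and 2, and 7.44 and 7.84 in PDLIM2 arrays 1 and 2, a log2 difference of -0.13 (SE 0.20). KLF3, a repressor with a role in B-cell development in mice, read 5.78 and 6.49 in mock arrays 1 and 2, and 6.08 and 6.63 in PDLIM2 arrays 1 and 2, a difference of 0.22 (SE 0.29). In KLF3 the arrays numbered 2 were higher than those numbered 1 in both groups, by 0.71 in mock and 0.55 in PDLIM2 cells, more than the groups differed. Its second probe, under the filter, was flat, with values from 5.19 to 5.30.

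The activators KLF2, KLF4 and KLF7 showed no separation of the groups either. KLF2 read 6.76 and 6.81 in mock arrays 1 and 2, and 6.61 and 7.004 in PDLIM2 arrays 1 and 2, a log2 difference of 0.02 (SE 0.20, 95% interval -0.44 to 0.48). The brighter probe of KLF4, a reprogramming factor with tumour-suppressive roles in B cells, read 6.38 and 6.18 in mock arrays and 6.21 and 6.21 in PDLIM2 arrays, a difference of -0.07 (SE 0.17). KLF7, known for roles in neurons and fat cells, read 6.17 and 5.90 in mock arrays 1 and 2, and 6.01 and 6.30 in PDLIM2 arrays 1 and 2, a difference of 0.12 (SE 0.19). For the 7 tested probes with differences within 0.25 log2 units of 0, unadjusted p lay between 0.472 and 0.926 in limma. Their 95% intervals together spanned -0.60 to 0.90, so moderate differences in either direction are within the error of these arrays. Of these 7 probes, only those of KLF12 and KLF13 exceeded the 90th percentile of the background reference on every array. KLF2 exceeded it on mock array 2 and PDLIM2 array 2 only. Its values lay above the reference median (5.73 to 5.77) on every array, so a fall could be read but may be understated. The probes of KLF3, KLF4, KLF7 and KLF10 (ILMN_1667594) were read so near background that a fall could hardly register. For these and for KLF2 the intervals do not bound the difference in transcript.

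**Figure D3:**
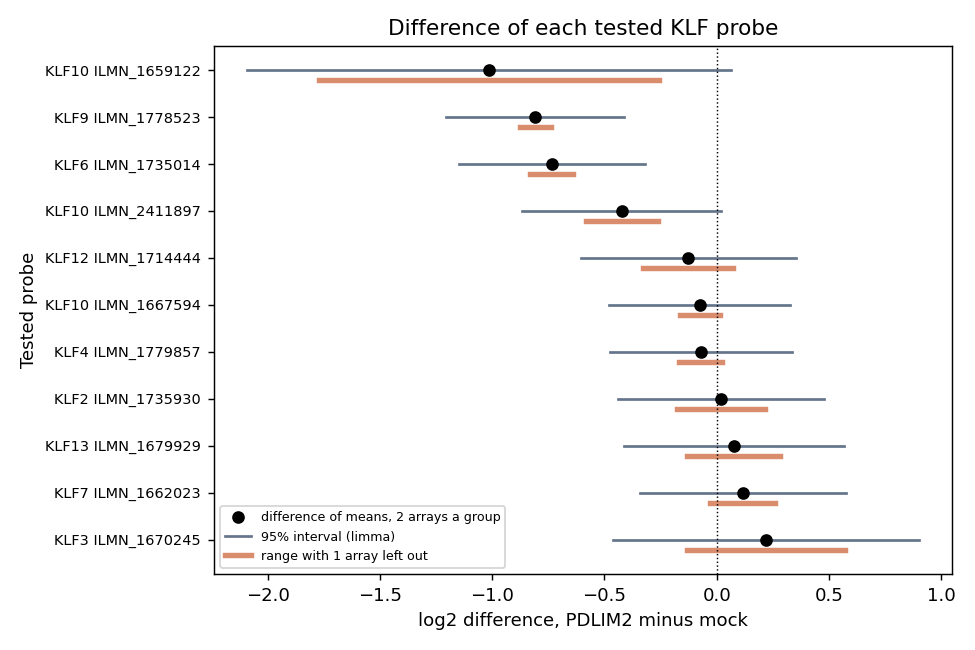
Log2 difference, PDLIM2 minus mock (x axis), of the 11 tested KLF probes (y axis). Points are differences of means over 2 arrays a group, grey lines 95% intervals from limma, and orange bars the range with 1 array left out. The intervals of KLF9 (-1.21 to -0.41) and KLF6 (-1.15 to -0.32) lie below 0, and those of the other 9 probes include 0.

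Between arrays of the same number, KLF9 differed by -0.71 (number 1) and -0.90 (number 2), and KLF6 by -0.57 and -0.90. Both KLF10 probes annotated to the same transcript were also lower in both, by -0.33 and -0.52 for ILMN_2411897 and by -0.52 and -1.51 for ILMN_1659122. In all, 5 of the 11 tested probes were lower in both numbers, where 25.2% of all tested probes were. There was 1 probe higher in both (29.5% of all), that of KLF3, and 5 had opposite signs, KLF13 with -0.25 and 0.40 among them. The PDLIM2 values lay below both mock values for 3 of the 11 probes, those of KLF6, KLF9 and KLF10 (ILMN_2411897), and this was so for 12.8% of all tested probes. They lay above both mock values for 0 of the 11, against 15.8% of all. With 11 probes for 9 genes, 3 of them on KLF10, these counts are a description.

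**Figure D4:**
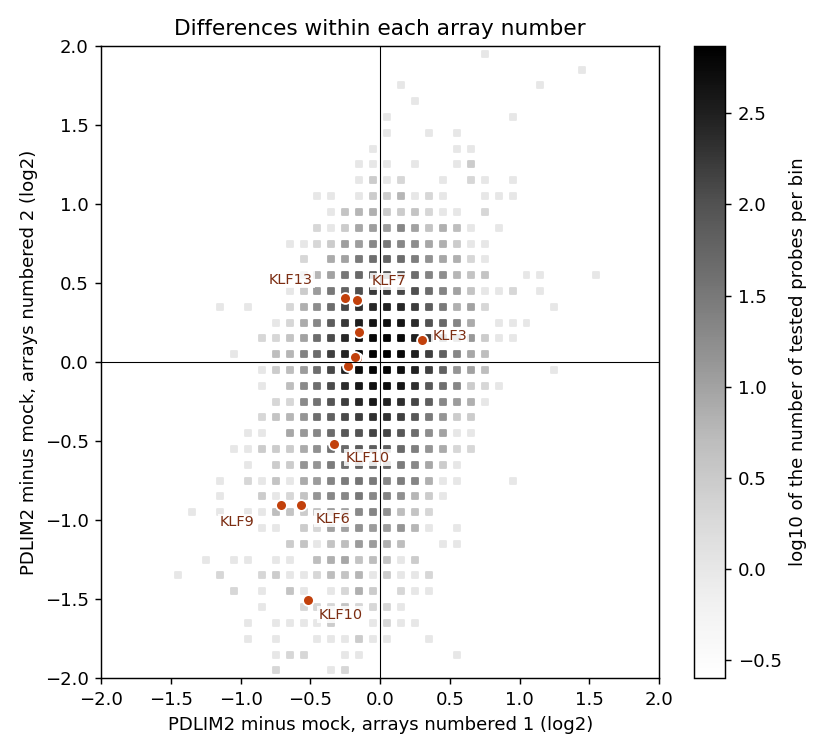
Log2 difference, PDLIM2 minus mock, between the arrays numbered 1 (x axis) and between those numbered 2 (y axis). Grey squares give the number of tested probes per bin on a log10 colour scale, and axes end at 2 log2 units in each direction. Orange points are the 11 tested KLF probes. Names are given to probes that differed by more than 0.25 log2 units in either direction, and also to KLF3, KLF7 and KLF13. KLF6, KLF9 and both named KLF10 probes lie in the lower left quadrant, while KLF7 and KLF13 lie in the upper left.

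Other genes of the KLF network were taken from lists, each gene by its brightest tested probe, and 0 members of any list passed the adjusted threshold in limma. The remaining KLF family genes had 7 genes with a probe, all under the background reference, and only KLF5 passed the filter, at -0.08 (SE 0.17). The related SP factors, which bind the same GC boxes, had 6 tested genes, 5 with higher and 1 with lower values and a median log2 difference of 0.03, with SP6 at -0.18 and SP4 at 0.13. SP6 lay below the background reference, and another SP4 probe of nearly the same brightness (ILMN_2145997) was at -0.22. Cofactors and ubiquitin ligases of KLFs had 15 tested genes, 5 higher and 10 lower, with a median of -0.03. The corepressor SIN3B was at 0.44 (SE 0.19) and the ubiquitin ligase SIAH1 at -0.45 (SE 0.21), and neither had an unadjusted p under 0.05. Without PDLIM2 array 2 they were at 0.25 and -0.21, and SP6 ranged from -0.30 to -0.063 with an array left out.

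Genes of the pathways upstream of KLF2 and KLF4 were split, with 5 higher and 5 lower of 10 tested and a median log2 difference of -0.03. FOXO1, a forkhead factor that activates KLF2 in lymphocytes, read 9.58 and 9.70 in mock arrays 1 and 2, and 8.88 and 9.18 in PDLIM2 arrays 1 and 2. Both PDLIM2 values were lower, a difference of -0.61 (SE 0.19, unadjusted p = 0.013 in limma). KLF2 itself was at 0.02 (95% interval -0.44 to 0.48). Its probe lay below the 95th percentile of the background reference and above the reference median, 5.73 to 5.77 over the arrays. A fall of KLF2 could thus be read, though its size may be understated. Whether FOXO1 bears on KLF2 here was not tested. MEF2A, a factor that activates KLF2 in endothelial cells, was at -0.58 (SE 0.24). PIK3CD, a PI3-kinase subunit whose signalling restrains FOXO1 and so acts in the opposite sense to the activators of the list, was at 0.50 (SE 0.20) and was named after its value was seen. Without PDLIM2 array 2 these were -0.31 and 0.27. Among the glucocorticoid receptor and its induced genes, 8 tested with 4 higher and 4 lower and a median of -0.02, TSC22D3 stood at -1.76 (SE 0.31), while DUSP1 was at 0.22 (SE 0.18), or 0.096 without PDLIM2 array 2.

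Genes known to act downstream were mixed. Of 10 tested trafficking genes that KLF2 controls in lymphocytes, 5 were higher and 5 lower, with a median log2 difference of -0.01 and with S1PR4, a sphingosine phosphate receptor, at 0.51 (SE 0.23) and CXCR5 at 0.20 (SE 0.20). With an array left out, S1PR4 ranged from 0.20 (without PDLIM2 array 2) to 0.83 (without PDLIM2 array 1) and CXCR5 from 0.06 to 0.34. Of 14 tested genes of TGF-beta signalling and growth arrest tied to KLF4, KLF6, KLF10 and KLF11, 5 were higher and 9 lower, with a median of -0.09. An unadjusted p under 0.05 was found for 3 with lower and 0 with higher values, beside 1.74% and 1.08% of all tested probes. CDKN1B, a cyclin-dependent kinase inhibitor, read 9.58 and 9.79 in mock arrays and 8.86 and 9.03 in PDLIM2 arrays, a difference of -0.74 (SE 0.18). SMAD7, the inhibitory SMAD that KLF10 is known to repress, read 8.47 and 8.68 in mock arrays and 7.96 and 8.01 in PDLIM2 arrays, a difference of -0.59 (SE 0.17). ATF3, named after its value was seen, was at -0.81 (SE 0.32), which was -0.31 without PDLIM2 array 2 and -1.31 without PDLIM2 array 1.

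Marker genes of the labelled line and of other cells were tested in the same fit. The Hodgkin and B-lineage genes had a median log2 difference of 0.04 over 12 tested genes. CD83 was at -0.65 (SE 0.19, unadjusted p = 0.012 in limma) and TRAF1 at 0.28 (0.18 without PDLIM2 array 2). The CD83 difference was -0.46 without PDLIM2 array 2 and -0.85 without PDLIM2 array 1. T and NK cell genes had a median of -0.06 over 4 tested genes, with NKG7 and CD28 both at -0.08. Myeloid genes had a median of -0.10 over 5, with CD68 at -0.46 (-0.27 without PDLIM2 array 2) and ITGAM at 0.22, and stromal genes -0.05 over 4, with PDGFRA at 0.31 and COL1A1 at -0.13. ITGAM and PDGFRA lay below the background reference. Of the tested T and NK cell genes only CD2 exceeded it on every array, with 11.59 and 12.17 in mock arrays. The mean log2 level of these genes, raised by CD2, was 7.84 and 8.05 in mock arrays and 7.83 and 7.93 in PDLIM2 arrays. That of the myeloid genes was 7.34 and 7.01 against 7.18 and 6.96. What part the marker genes had in the KLF values was not tested.

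The genes whose values over the 4 arrays were most like those of 2 KLF probes were found among 12408 other genes, after each probe's own mean was subtracted, by the root mean square distance in log2 units. Nearest to KLF9 were KBTBD2 (distance 0.025), B9D2 (0.054), the cyclin G2 gene CCNG2 (0.060), the prostaglandin receptor gene PTGER4 (0.074) and the co-chaperone gene DNAJB4 (0.078). Nearest to the KLF10 probe with the largest difference (ILMN_1659122) were LRIF1 (0.049), the mRNA export factor gene ALYREF (0.11), UBXN7 (0.11), the ribosomal RNA gene RNA28SN5 (0.11) and LIN52 (0.16). In all 5 of the latter, as in that KLF10 probe, PDLIM2 array 2 was the lowest of the 4 arrays by more than the other arrays differed among themselves. With 4 arrays, many genes can come this close, and the distances are given as a description.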

How the data were processed

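The authors deposited 1 value per probe and array for 4 Illumina bead arrays. From their range the values were taken as log2 intensities, and their nearly identical quartiles show that the deposited log2 values had been normalized between arrays. How the scans were background-corrected and normalized, and with which software, is not given in the sources used here. Of 47231 probes, 1 with an empty cell was left out. Probes were named through GEO's platform annotation, 30112 with 1 symbol (8 with several symbols were left unnamed), and symbols were updated through RefSeq (GRCh38.p14).

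Groups and array numbers came from the sample titles. The 23615 probes whose mean exceeded the overall median (5.99) entered a limma 3.58.1 fit (lmFit, eBayes; R 4.3.3) of group alone, and two-sided p-values were adjusted by Benjamini-Hochberg with a threshold of 0.05. Degrees of freedom were 2 residual and 5.10 prior. Member probes under the filter take their values from the same fit on all probes. Scripts were tested on simulated arrays. Precision is limited by having 4 arrays.

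The members and lists were chosen with earlier results of these data known. Named were all KLF probes, the 2 genes of smallest p per list, and the 5 nearest genes by distance. PIK3CD and ATF3 were named after their values were seen. Upstream sequences came from RefSeq tables. The alternatives were other filters, quantile normalization, median centring, an offset of 50, limma-trend, a robust prior, a block for array number, leaving out each array, and other levels of the background reference.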

Additional observations from a re-analysis of the deposited data

How the results depend on the processing

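The counts of 0 probes called higher, 0 called lower and 0 KLF probes called in limma were the same with an offset of 50, without the filter or at the 75th percentile, after quantile normalization or median centring, and with limma-trend or a robust prior. Under these settings and the replicate block no KLF probe that could be fitted changed sign or passed the threshold. With the replicate block, 0 probes were called higher and 1 lower, and 0 KLF probes, with KLF9 at an adjusted p of 0.278 and KLF6 at 0.356. Nothing in the labels pairs arrays of 1 number beyond the number itself, and their deviations correlated across tested probes (r = 0.476, probes not being independent). With an array left out, 0 to 163 probes were called higher, 0 to 647 lower and 0 to 2 KLF probes, the highest counts without PDLIM2 array 1, where KLF9 and KLF10 (ILMN_1659122) were called, and 16 higher and 29 lower without PDLIM2 array 2. The median KLF difference was -0.42 at the 75th percentile filter, which keeps 5 of the 11 probes. KLF probes above the background reference numbered 5 at its 90th percentile, 5 without PRL and KRT10, and 1 at its maximum with the highest probe left out.

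Differences that changed sign with an array left out ranged from -0.18 to 0.22 for KLF2, -0.13 to 0.57 for KLF3 (ILMN_1670245), -0.17 to 0.025 and -0.17 to 0.11 for the KLF4 probes ILMN_1779857 and ILMN_2137789, -0.031 to 0.26 for KLF7, -0.16 to 0.012 for KLF10 (ILMN_1667594), -0.33 to 0.074 and -0.32 to 0.049 for the KLF12 probes ILMN_1714444 and ILMN_1762801, -0.13 to 0.28 for KLF13, -0.15 to 0.00067 for KLF5, -0.11 to 0.36 for SP4, -0.17 to 0.0019 for NKG7, -0.26 to 0.10 for CD28 and -0.29 to 0.025 for COL1A1. What caused these shifts was not tested.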
